A study of Homo sapiens with 60 samples.

Results

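The 36 genes described here encode the general protein-folding machinery of the cytosol and mitochondria, with the heat shock factors that regulate much of it. They were taken by symbol from the deposited table: the HSP70 and HSP110 proteins, HSP90 with its cochaperones, J proteins with BAG3 and HSPB1, the mitochondrial chaperones, the 8 subunits of the chaperonin TRiC, and HSF1, HSF2 and UBB. All 36 had a row among the 60675 genes of the table, and all 36 were among the 16978 genes with enough reads to be tested. The rule that finds them uses gene symbols, but the set was proposed with earlier results of these data known.

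The cells were HT29, a line grown from a human colorectal adenocarcinoma, and their RNA was measured after 24 h with ethanol extracts of herbs or herbal formulas. Polygalae Radix was given at 15.2, 76 and 380 µg/mL and Aucklandiae Radix at 14.8, 74 and 370 µg/mL, with 2 libraries at each dose. Menthae Herba, Saposhnikoviae Radix, Saengmaek-san and Guibi-tang were given at 20, 100 and 500 µg/mL with 3 libraries at each dose, and Soyo-san at the same doses with 2. Okbyeongpung-san, also at 20, 100 and 500 µg/mL, had 1 library at each dose and entered no test. These doses are called low, medium and high. The vehicle had 3 libraries and is given as 0.1% DMSO in the sample labels but as 2% in the design text, so its concentration is uncertain. All groups are 1 cell line, and whether replicates were separate cultures is not given in the sources used here, so each p-value reflects how far these libraries scatter, and that scatter may be technical.

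Molecular chaperones bind unfolded or partly folded proteins and, mostly with energy from ATP, help them to fold, assemble or be handed on for degradation. J proteins bring clients to HSP70, nucleotide exchange factors such as the HSP110 proteins and BAG3 release them, and HSP90 matures kinases, steroid receptors and other late-stage clients. TRiC encloses actin, tubulin and other proteins in its chamber, and HSPD1 with its lid HSPE1 does so in mitochondria. HSF1, the main heat shock factor, is held inactive by chaperones and, when unfolded proteins accumulate, binds arrays of the 5-base unit nGAAn to raise their transcription.

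Because HSF1 reads such arrays, the promoters of the members were searched on both strands for 3 alternating units: GAA, any 2 bases, TTC, any 2 bases, GAA. The sequences are RefSeq promoters on GRCh38.p14 from 250 bases before to 50 after each start site, and 33 of the 36 members have one. The array was present in 7 of these 33 genes (21.2%), against 166 of 27305 genes with a promoter (0.608%) and 172 of 35116 promoters (0.49%). The shorter form of 2 units, GAA, any 2 bases, TTC, which lies inside every such array, was in 13 of 33 members (39.4%) and in 8.21% of all genes. The windows of 30 bases below carry the arrays on the strand of the gene, 5′ to 3′, with the matching units in capitals. They are shown since the called changes of these genes went in both directions with Aucklandiae Radix. HSPA1A and HSPA1B are added for their shorter, 2-unit match. A match is only a match of letters.
HSPA8, chr11:123062170-123062199, minus strand: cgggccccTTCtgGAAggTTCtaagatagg
HSPA8, chr11:123062345-123062374, minus strand: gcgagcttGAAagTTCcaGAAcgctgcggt
HSP90AA1, chr14:102087111-102087140, minus strand: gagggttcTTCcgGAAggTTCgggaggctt
HSP90AB1, chr6:44247770-44247799, plus strand: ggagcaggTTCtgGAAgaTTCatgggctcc
HSP90AB1, chr6:44247823-44247852, plus strand: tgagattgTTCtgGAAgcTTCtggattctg
CHORDC1, chr11:90223083-90223112, minus strand: ccgGAAaaTTCgcGAAggTTCctGAAacgc
DNAJA1, chr9:33025268-33025297, plus strand: gccgggcgGAActTTCcaGAAcgctcggtg
DNAJB6, chr7:157336865-157336894, plus strand: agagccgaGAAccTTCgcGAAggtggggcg
HSPD1, chr2:197500061-197500090, minus strand: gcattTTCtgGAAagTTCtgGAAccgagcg
HSPA1A, chr6:31815426-31815455, plus strand: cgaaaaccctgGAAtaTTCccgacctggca
HSPA1B, chr6:31827622-31827651, plus strand: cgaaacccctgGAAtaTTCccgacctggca
CHORDC1 holds 5 alternating units and HSPD1 holds 4. HSPA1A and HSPA1B share 277 of 299 promoter bases (92.6%), and their transcripts are also near-identical, so the division of reads between them is uncertain. HSPD1 and HSPE1 lie head to head on chromosome 2, with their nearest start sites 105 bases apart, at 197500274 and 197500379. The printed HSPD1 array does not lie between these sites. It is upstream of another HSPD1 start site, at 197499840, and downstream of the HSPD1 site at 197500274.

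Total expected counts ran from 17079221 to 36796414 per library. 1 library did not resemble its group, the one labelled Saposhnikoviae Radix low replicate 2. Its best correlation within the group was 0.848, where all other libraries with a group mate reached 0.996 or more, and 3.33% of its counts were mitochondrial against 6.19% to 12.3% elsewhere. It was left out of the fit, as the rule for this gene set asks. With it in, the number of members called between high and low dose went from 25 to 13 for Polygalae Radix, from 26 to 17 for Aucklandiae Radix and from 29 to 10 for Menthae Herba. It went from 0 to 9 for Saposhnikoviae Radix, from 8 to 0 for Guibi-tang and from 2 to 0 for Soyo-san. Markers listed for colon epithelium were uneven in the vehicle. KRT8 was at 7397 and EPCAM at 526 CPM (counts scaled to a common library total). KRT18, LGALS4, CDH1, KRT20 and VIL1 lay between 164 and 4380 CPM. CEACAM5 (7.54), CDX2 (4.47), CDH17 (3.05) and CDX1 (0.918) were low. Summed markers reached at most 3.43 CPM for fibroblasts and 4.20 for blood cells. The hepatocyte list summed to 172 to 377 CPM, nearly all from SERPINA1, and ALB was at 0 in 54 of 59 libraries.

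Per kilobase of exon, the most abundant members in the vehicle were HSP90AB1, the constitutive cytosolic HSP90, at 699 ± 47.3 CPM per kb (SD, n = 3), and HSPA8, the constitutive HSP70, at 640 ± 39.3. HSPD1 followed at 240 ± 17.0 and HSP90AA1, the stress-inducible HSP90, at 237 ± 40.4, and these levels did not differ beyond their spread. The inducible HSP70 genes HSPA1A and HSPA1B stood at 133 ± 10.2 and 145 ± 6.96. The TRiC subunits lay between 57.6 for CCT8 and 104 for CCT6A. The lowest were HSF2, a second heat shock factor, at 4.96 ± 0.286 and DNAJB4 at 3.30 ± 0.426. The lengths are merged exons of GENCODE 29 on GRCh38.

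Comparing the high with the low dose of the same extract asks how these genes moved with dose, and it uses no vehicle library. Differences were tested with edgeR's quasi-likelihood test, adjusted over all genes, and a gene is called at an adjusted p under 0.05. Polygalae Radix lowered most of the set: 22 members fell and 3 rose, against 16.0% and 13.3% of all genes. The 22 are 61.1% of the members, and the members' median log2 change was -0.32 against -0.01 over all genes. Menthae Herba did the reverse: 29 members (80.6%) rose and 0 fell, against 12.0% and 11.6% of all genes, with a median of 0.22. Aucklandiae Radix split the set, with 18 rises and 8 falls and a median of 0.13. It also moved 29.6% of all genes up and 29.2% down, so the members' share lower (22.2%) was below the background and the share higher, 18 of 36, above it.

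Guibi-tang raised 7 members and lowered 1, against 8.84% and 9.08% of all genes, so a share of 19.4% higher stood beside a background of 8.84%. Soyo-san raised 2 members, FKBP4 by 0.24 and TCP1 by 0.19, and lowered 0, against 1.11% and 1.38%. Saposhnikoviae Radix (background 0.183% higher and 0.106% lower) and Saengmaek-san (0.412% and 0.442%) had 0 members called by edgeR, and DESeq2 also gave 0 for each. At an unadjusted p under 0.05, 1 member was higher with Saposhnikoviae Radix and 12 with Saengmaek-san, and 0 were lower in either. The share of all genes at that unadjusted threshold is not given here, so these 2 counts cannot be set against a background. The counts for Guibi-tang and Soyo-san turned on single libraries. Guibi-tang gave 14 calls without its low replicate 3 and 5 without low replicate 1 or low replicate 2, and Soyo-san gave 1 without high replicate 1, high replicate 2 or low replicate 2 and 0 without low replicate 1.

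**Figure D1:**
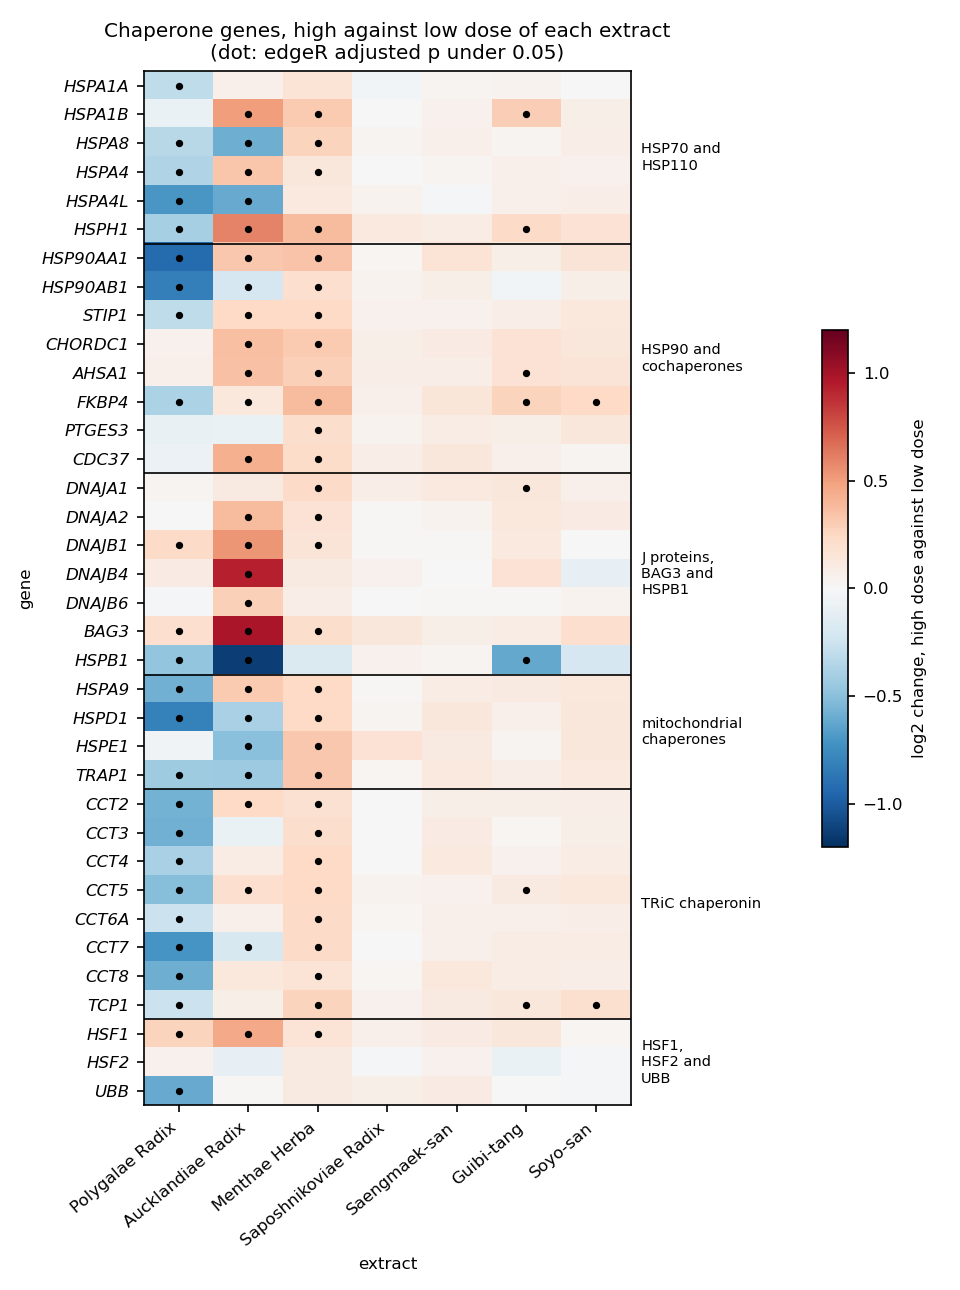
Colour gives the log2 change of high against low dose for each of the 36 genes (rows, by role) in each of the 7 tested extracts (columns), and a dot marks an edgeR adjusted p under 0.05. The column of Polygalae Radix is mostly blue (22 falls), that of Menthae Herba is mostly red (29 rises), and that of Aucklandiae Radix holds both (18 rises and 8 falls).

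Of the 252 tests of 36 members in 7 extracts, 59 were rises, 31 were falls and 162 were not called. 19 members rose in at least 1 extract and fell in at least 1 other. Another 12 were called higher only (among them HSPA1B, DNAJB1, BAG3 and HSF1) and 4 lower only (HSPA1A, HSPA4L, HSPB1 and UBB), while HSF2 was called in none. The shares of all genes with such patterns over the 7 extracts are not given here, so these counts cannot be set against a background.

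Summed over all 36 genes, the 3 vehicle libraries gave 14085, 15939 and 15982 CPM. The 2 libraries of Polygalae Radix at high dose gave 9886 and 9965 CPM, against 13795 and 13549 at low dose and 13405 and 13363 at medium dose. They were the lowest of all groups. The 3 libraries of Menthae Herba at high dose gave 15971, 16421 and 16619 CPM, of which 2 were above the highest vehicle library, against 13776 to 13860 at its low dose. Aucklandiae Radix at high dose gave 13571 and 13414 CPM, below its low dose at 13666 and 13846, although more of its members rose than fell. These sums were not tested. In bulk RNA, fewer cells that express a gene and less of its RNA per cell cannot be told apart.

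**Figure D2:**
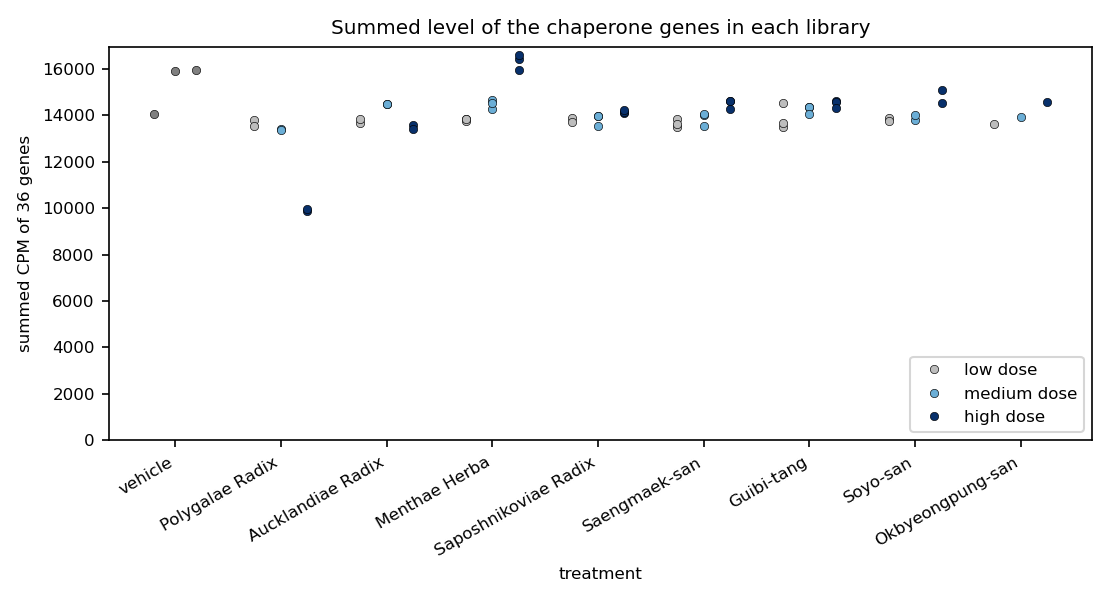
Summed CPM of the 36 genes (vertical axis) in each library, by treatment and dose, without the library that stood apart. Polygalae Radix at high dose lies at 9886 and 9965 CPM, below all other libraries, and Menthae Herba at high dose reaches 16619.

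In the HSP70 and HSP110 group, Polygalae Radix lowered 5 of 6 genes, Menthae Herba raised 4, and Aucklandiae Radix raised 3 and lowered 2. HSPA8 folds new proteins and uncoats clathrin vesicles. It stood at 2904, 3117 and 3284 CPM in the vehicle. With Polygalae Radix it was at 1866 and 1973 at high dose and 2378 and 2446 at low dose. With Aucklandiae Radix it was at 1587 and 1612 at high dose and 2362 and 2451 at low dose, so that no library of high and low dose overlapped for either extract. The log2 changes were -0.33 ± 0.04 (SE, edgeR adjusted p = 6.11e-08) and -0.59 ± 0.04 (adjusted p = 1.21e-15). With Menthae Herba HSPA8 rose, from 2353, 2406 and 2419 CPM to 2807, 2875 and 2936 (0.26 ± 0.04, adjusted p = 1.91e-07).

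The inducible pair followed HSPA8 in some extracts and not in others. HSPA1B rose with Aucklandiae Radix from 266 and 282 CPM at low dose to 382 and 394 at high dose, a log2 change of 0.50 ± 0.07 (edgeR adjusted p = 1.10e-07). The medium dose lay between, at 315 and 307. It also rose with Menthae Herba (0.31) and Guibi-tang (0.29). Its near-copy HSPA1A was at 244 and 252 CPM with Aucklandiae Radix at high dose and at 236 and 240 at low dose, and it was not called (0.06, adjusted p = 0.548). With Polygalae Radix HSPA1A fell from 228 and 223 CPM to 199 and 166 (-0.30 ± 0.08, adjusted p = 0.00293), a call that was lost without high replicate 3 (-0.17, adjusted p = 0.205), while HSPA1B was not called (-0.08). Within each library the ratio of HSPA1A to HSPA1B was 0.640 in both libraries of Aucklandiae Radix at high dose, against 0.890 and 0.851 at low dose. Sequence shared by the copies makes this ratio uncertain.

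HSPH1, the main HSP110 and an exchange factor for HSP70, went in opposite directions. It was at 724 CPM in both libraries of Aucklandiae Radix at high dose against 477 and 484 at low dose (0.59 ± 0.08). With Polygalae Radix it fell from 485 and 478 CPM to 352 and 379 (-0.40 ± 0.08). HSPA4, a related HSP110, followed with changes of 0.34 and -0.36. HSPA4L, another HSP110, instead fell with both: from 100 and 99.0 CPM to 57.7 and 65.0 with Polygalae Radix (-0.70 ± 0.11, edgeR adjusted p = 2.00e-06), and from 96.6 and 95.7 to 61.9 and 64.8 with Aucklandiae Radix (-0.60 ± 0.11, adjusted p = 5.77e-06). With Menthae Herba HSPH1 rose by 0.38 and HSPA4 by 0.13, and HSPA4L was not called.

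In the HSP90 group, Menthae Herba raised all 8 genes, Aucklandiae Radix raised 6 and lowered 1, and Polygalae Radix lowered 4. HSP90AA1 showed the largest fall of the set with Polygalae Radix. It went from 1097 and 1033 CPM at low dose to 992 and 1021 at medium dose and 543 and 576 at high dose, a high against low change of -0.93 ± 0.08 (edgeR adjusted p = 9.61e-13). With Aucklandiae Radix the same gene rose from 1093 and 1075 CPM to 1397 and 1316 (0.32 ± 0.08, adjusted p = 0.000485), and with Menthae Herba from 1066, 1072 and 1058 to 1342, 1392 and 1324 (0.35 ± 0.06). The vehicle libraries of this gene were spread widely, at 1011, 1425 and 1299 CPM, and they overlap the high dose of Aucklandiae Radix.

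HSP90AB1 fell with Polygalae Radix from 1988 and 1894 CPM to 1109 and 1083 (-0.82 ± 0.05, edgeR adjusted p = 3.88e-17). With Aucklandiae Radix it fell slightly, from 1973 and 2011 to 1708 and 1745 (-0.21 ± 0.05), in contrast to the rise of HSP90AA1. The ratio of HSP90AA1 to HSP90AB1 within a library was accordingly 0.818 and 0.754 with Aucklandiae Radix at high dose, against 0.554 and 0.534 at low dose. With Polygalae Radix both genes dropped together, and this ratio was 0.490 and 0.532 at high dose and 0.552 and 0.545 at low dose.

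Of the HSP90 cochaperones, STIP1, which links HSP70 to HSP90, fell with Polygalae Radix (-0.31) and rose with Aucklandiae Radix (0.24) and Menthae Herba (0.24). FKBP4, an immunophilin of steroid receptor complexes, changed by -0.38, 0.13 and 0.38 in the same 3 extracts, and it also rose with Guibi-tang (0.27) and Soyo-san (0.24). AHSA1, the activator of the HSP90 ATPase, rose with Aucklandiae Radix (0.35), Menthae Herba (0.28) and Guibi-tang (0.18). CDC37, which loads kinases, rose with Aucklandiae Radix (0.42) and Menthae Herba (0.22). CHORDC1 rose with these 2 extracts as well (0.36 and 0.31). PTGES3, the p23 cochaperone that stabilises the closed HSP90 dimer, rose only with Menthae Herba among the calls (0.21). None of AHSA1, CDC37, CHORDC1 and PTGES3 was called with Polygalae Radix, where their changes lay between -0.09 and 0.06.

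The group of J proteins, BAG3 and HSPB1 held the largest changes of Aucklandiae Radix, with 5 rises and 1 fall among 7 genes. BAG3, the exchange factor that sends HSP70 clients to autophagy, went from 44.4 and 46.2 CPM at low dose and 46.8 and 49.0 at medium dose to 91.8 and 87.2 at high dose. That is 1.97-fold (0.98 ± 0.06, edgeR adjusted p = 2.07e-18). DNAJB4 went from 11.2 and 12.2 CPM to 23.4 and 21.1 (0.93 ± 0.10), and DNAJB1, the main cytosolic J protein of the heat shock response, from 81.4 in both libraries to 119 and 116 (0.53 ± 0.06). DNAJA2 (0.38) and DNAJB6 (0.28) rose too. For BAG3 the high dose stood apart from the medium dose as well as the low dose.

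With Polygalae Radix, BAG3 and DNAJB1 were among the 3 members that rose. BAG3 went from 43.7 and 46.2 CPM to 52.7 and 50.7 (0.20 ± 0.06, edgeR adjusted p = 0.0115), and DNAJB1 from 74.6 and 85.5 to 96.1 and 91.5 (0.23 ± 0.06, adjusted p = 0.00392). Both groups were fully separated by dose but lay below the lowest vehicle library of 58.0 CPM for BAG3 and 104 CPM for DNAJB1. DNAJA1, DNAJA2, DNAJB4 and DNAJB6 were not called. Of these DNAJA1, a J protein that binds unfolded clients, stood at 206 and 204 CPM at high and 205 and 196 at low dose, against 214, 261 and 245 in the vehicle. Menthae Herba raised DNAJA1 from 204, 195 and 196 CPM to 229, 225 and 242 (0.23), BAG3 (0.21), DNAJA2 (0.17) and DNAJB1 (0.15). DNAJA1 was also called with Guibi-tang (0.14), where its groups overlapped at 207 to 226 and 179 to 219 CPM. That call was lost without low replicate 1, low replicate 2, high replicate 2 or high replicate 3, with adjusted p from 0.109 to 0.401, and with total counts or no filter (adjusted p = 0.117 and 0.0785).

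HSPB1, a small heat shock protein that holds unfolding proteins without using ATP, was the member with the largest fall of the whole comparison. With Aucklandiae Radix it went from 135 and 142 CPM at low dose and 119 and 127 at medium dose to 67.8 and 59.1 at high dose (-1.13 ± 0.11, edgeR adjusted p = 2.02e-12). With Guibi-tang it was at 153, 135 and 144 CPM at low dose, 151, 136 and 119 at medium dose and 97.8, 92.5 and 92.3 at high dose (-0.61 ± 0.09, adjusted p = 3.80e-07). This was the only fall with Guibi-tang, beside 7 rises. With Polygalae Radix it went from 129 and 124 CPM to 97.1 and 84.8 (-0.48 ± 0.11, adjusted p = 0.000412). In each of these extracts the high dose was below every medium and low library. With Menthae Herba the change was -0.17 (adjusted p = 0.148).

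**Figure D3:**
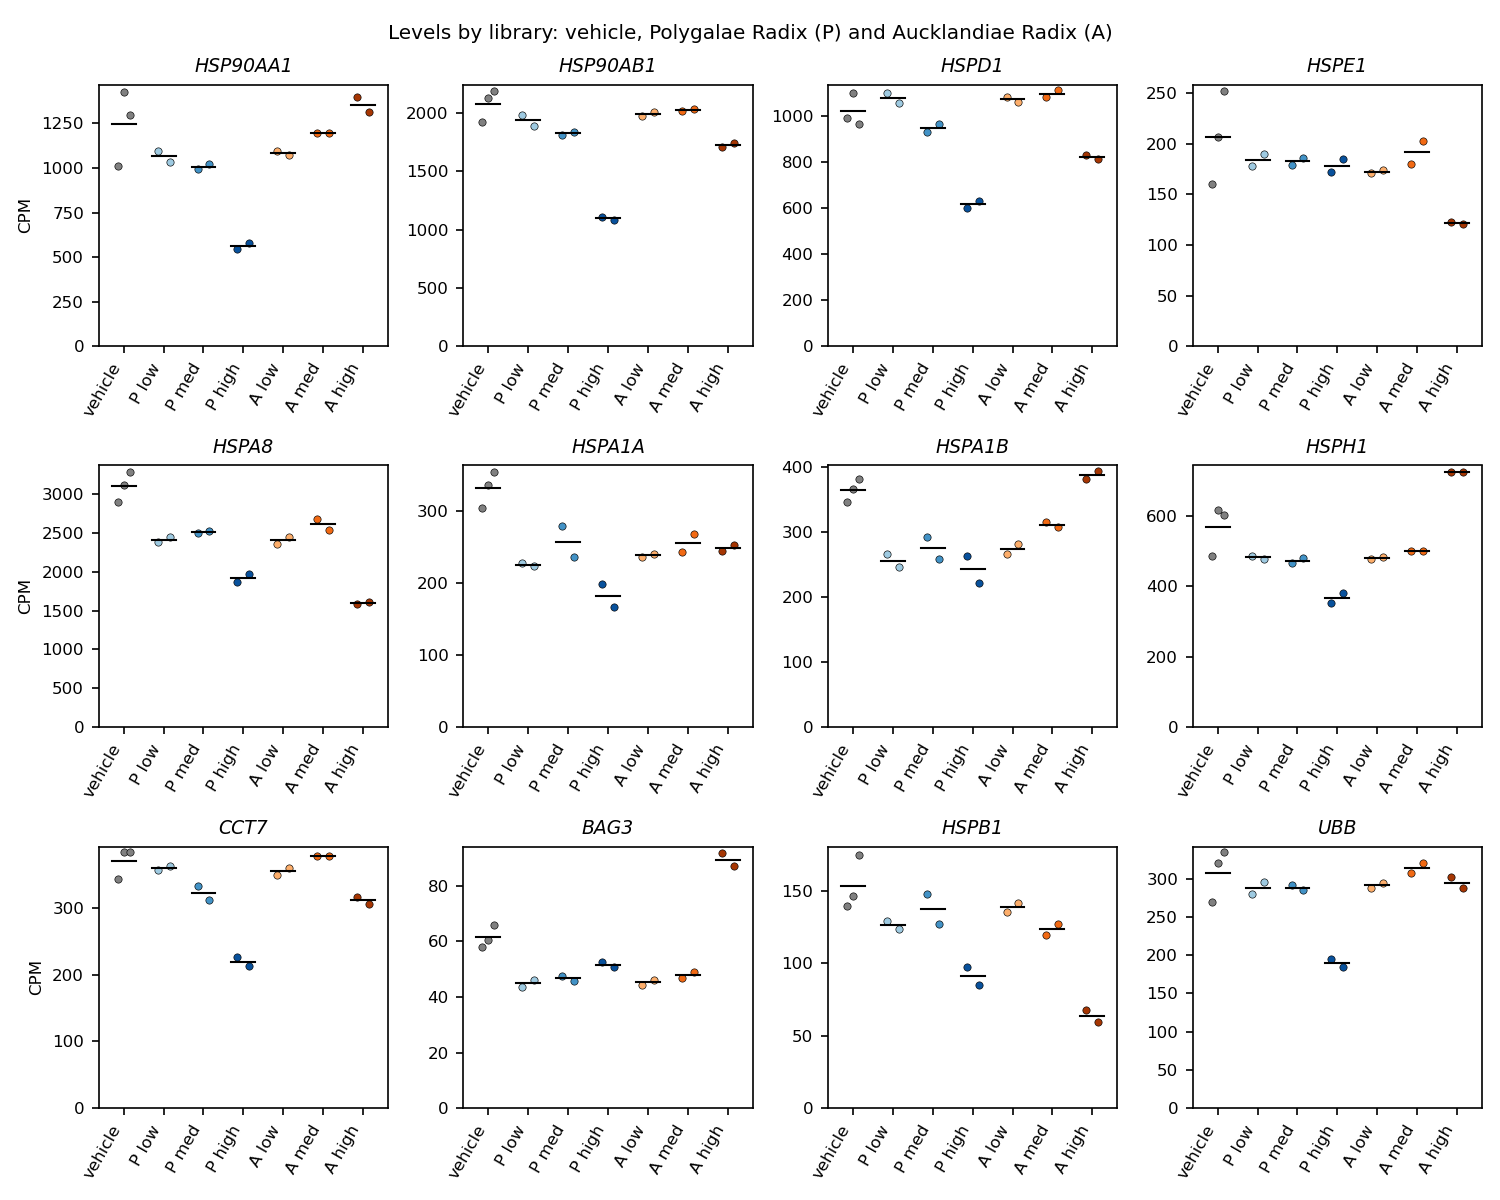
CPM (vertical axes, from 0) of 12 members in each library of the vehicle and of the 3 doses of Polygalae Radix (P) and Aucklandiae Radix (A), with lines for group means. HSP90AA1 falls to 543 and 576 CPM only at high P, BAG3 reaches 91.8 and 87.2 only at high A, and HSPB1 is lowest at high A.

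The mitochondrial chaperones also moved unequally. HSPD1, the barrel of the mitochondrial chaperonin, fell with Polygalae Radix from 1099 and 1059 CPM at low dose through 932 and 966 at medium dose to 599 and 633 at high dose (-0.81 ± 0.05, edgeR adjusted p = 3.72e-17). Its lid HSPE1 stayed uncalled, at 178 and 190 CPM at low dose and 172 and 185 at high dose (-0.04, with a 95% interval from -0.26 to 0.17). The ratio of HSPD1 to HSPE1 within a library was thus 3.49 and 3.43 at high dose and 6.17 and 5.58 at low dose. In the vehicle the ratio itself ranged from 3.83 to 6.20.

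With Aucklandiae Radix both parts of the chaperonin fell. HSPD1 went from 1084 and 1063 CPM to 831 and 811 (-0.39 ± 0.05), and HSPE1 from 171 and 174 to 123 and 121 (-0.50 ± 0.11). Their ratio stayed near the low dose, at 6.78 and 6.70 against 6.34 and 6.13. HSPA9, the mitochondrial HSP70 that pulls proteins through the import channel, instead rose from 434 and 418 CPM to 528 and 532 (0.32 ± 0.05), while it fell with Polygalae Radix from 443 and 407 to 284 and 286 (-0.58 ± 0.05). TRAP1, the mitochondrial HSP90, fell with both extracts (-0.43 with Polygalae Radix and -0.44 with Aucklandiae Radix). Menthae Herba raised all 4 mitochondrial genes, HSPE1 by 0.33, TRAP1 by 0.32, and HSPA9 and HSPD1 by 0.24 each.

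The 8 TRiC subunits form 1 double ring with each subunit at a fixed place. With Polygalae Radix all 8 fell, from -0.26 for TCP1 to -0.71 for CCT7. In the vehicle CCT7 stood at 343, 384 and 383 CPM and CCT5 at 515, 555 and 552. CCT7 went from 357 and 363 CPM to 226 and 214 (-0.71 ± 0.05, edgeR adjusted p = 2.06e-15), and CCT5 from 543 and 529 to 372 and 382 (-0.51 ± 0.04, adjusted p = 1.46e-13). With Menthae Herba all 8 rose within a narrow range, from 0.17 for CCT8 to 0.26 for TCP1. CCT5 went from 549, 546 and 548 CPM to 632, 656 and 653 there. With Aucklandiae Radix the subunits did not share a direction: CCT2 (0.24) and CCT5 (0.20) rose, CCT7 fell (-0.19), and 5 were not called. Guibi-tang raised TCP1 (0.14) and CCT5 (0.11), although CCT5 was not called without low replicate 1 (0.08, adjusted p = 0.135) or low replicate 2 (0.09, adjusted p = 0.0825), or with total counts or no filter (adjusted p = 0.0681 and 0.209).

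HSF1 rose with Aucklandiae Radix from 110 and 123 CPM to 158 and 161 (0.46 ± 0.07, edgeR adjusted p = 6.97e-08). With Polygalae Radix it went from 104 and 106 to 128 and 124 (0.27 ± 0.07, adjusted p = 0.00169), the largest rise there, and with Menthae Herba it changed by 0.17. The last was not called without high replicate 3 or low replicate 1 (adjusted p = 0.0905 and 0.0887), or with total counts (adjusted p = 0.111). HSF1 acts mostly through modification of its protein, which RNA levels do not show, and DGAT1 overlaps it on the opposite strand. HSF2 stayed between 12.3 and 16.2 CPM in all 56 extract libraries. UBB, a polyubiquitin gene, was at 269, 321 and 335 CPM in the vehicle. It fell with Polygalae Radix from 280 and 296 CPM to 195 and 185 (-0.60 ± 0.07, adjusted p = 6.02e-09), whereas with Aucklandiae Radix it was at 303 and 287 against 288 and 295 (0.02).

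The 7 genes with a 3-unit array in the promoter were split in direction with Aucklandiae Radix only. With Polygalae Radix 4 of them fell (HSPA8, HSP90AA1, HSP90AB1 and HSPD1) and 3 were not called, beside 61.1% of all 36 members lower. With Aucklandiae Radix 3 rose (HSP90AA1, CHORDC1 and DNAJB6), 3 fell (HSPA8, HSP90AB1 and HSPD1) and DNAJA1 was not called. Among all 36 members 50% rose there and 22.2% fell. With Menthae Herba 6 rose, all but DNAJB6, beside 80.6% of all 36 members higher.

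At medium dose little had moved from the low dose. Polygalae Radix lowered 2 members, HSPD1 (-0.19, edgeR adjusted p = 0.0190) and CCT7 (-0.16, adjusted p = 0.0488). The 2 are 5.56% of the members, near the 4.95% of all genes called, so the count shows nothing particular to the members. Both were among its most strongly lowered members at high dose, but that comparison uses the same low dose libraries. The count of 2 became 0 without medium replicate 2, low replicate 2 or low replicate 3 of Polygalae Radix. Aucklandiae Radix had 0 of 36 called by edgeR against 2.60% of all genes, with 7 higher and 0 lower at an unadjusted p under 0.05. The other 5 extracts had 0 members called as well, with 0 to 8 higher and 0 or 1 lower at an unadjusted p under 0.05. There the share of all genes called was itself 0.0294% for Menthae Herba, 0.118% for Guibi-tang and 0% for the rest, so these counts say nothing of the members. DESeq2 gave 2 calls over all 7 extracts. For the counts at an unadjusted p, no share of all genes is given here, so they cannot be set against a background.

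Polygalae Radix and Aucklandiae Radix share a library set and nearly the same doses, so their high minus low differences were compared directly. The difference was called for 30 of 36 members, 27 lower and 3 higher with Polygalae Radix, against 46.6% of all genes. The largest were HSP90AA1 (-1.25 ± 0.11, edgeR adjusted p = 1.06e-12), HSPH1 (-0.99 ± 0.11), HSPA9 (-0.89 ± 0.07), DNAJB4 (-0.83 ± 0.15) and CCT2 (-0.80 ± 0.07). The 3 in the other direction were HSPB1 (0.65 ± 0.15), HSPE1 (0.45 ± 0.15) and HSPA8 (0.26 ± 0.06), each of which fell more with Aucklandiae Radix. HSPA4L, TRAP1, DNAJA1, PTGES3, HSF1 and HSF2 were not called. HSPA4L and TRAP1 fell in both extracts and HSF1 rose in both. The 95% interval of the difference was -0.41 to 0.21 for HSPA4L, -0.17 to 0.18 for TRAP1 and -0.38 to -0.0035 for HSF1 (adjusted p = 0.0897). With libraries scaled by total counts alone, the difference was called for 23 members, 19 lower and 4 higher. No share of all genes is given here for that scaling.

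**Figure D4:**
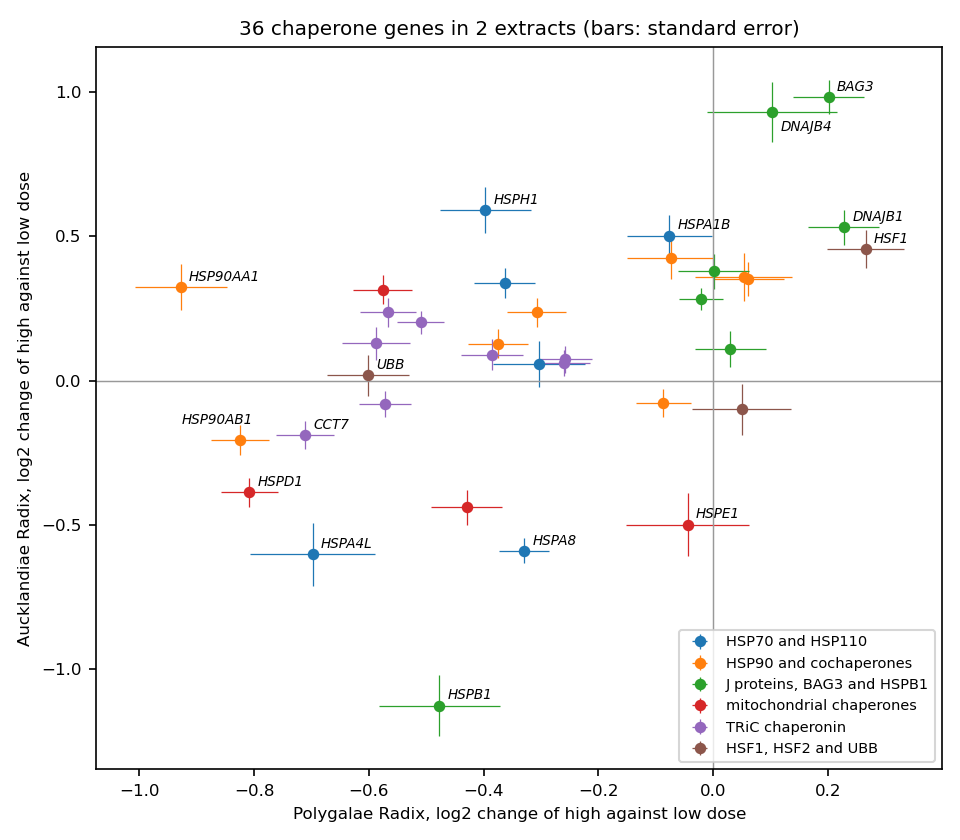
Log2 change of high against low dose with Polygalae Radix (horizontal) and Aucklandiae Radix (vertical) for the 36 genes, coloured by role, with bars of 1 standard error. HSP90AA1 and HSPH1 lie left and up (-0.93 and 0.32; -0.40 and 0.59), and HSPB1, HSPD1 and HSPA4L lie left and down.

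Menthae Herba and Saposhnikoviae Radix share another set and the same doses. The difference of their changes was called for 11 members, all higher with Menthae Herba, against 3.59% of all genes, and DESeq2 called 15. They were HSPA1B (0.31 ± 0.09), HSPA8 (0.23 ± 0.05), FKBP4 (0.32 ± 0.06), HSPA9 (0.22 ± 0.06), TRAP1 (0.30 ± 0.07) and the TRiC subunits CCT3, CCT4, CCT5, CCT6A, CCT7 and TCP1 (0.20 to 0.24). This count rests on few libraries. It was 2 without Saposhnikoviae Radix low replicate 1, 3 without Menthae Herba high replicate 3, 5 without Saposhnikoviae Radix high replicate 2, 6 without Saposhnikoviae Radix high replicate 1 or without Menthae Herba low replicate 2 or low replicate 3, and 7 without Menthae Herba high replicate 2. It was also 3 when libraries were scaled by total counts alone. Between Saengmaek-san and Guibi-tang, also of 1 set and the same doses, 1 member differed against 7.21% of all genes, HSPB1 (0.65 ± 0.12, edgeR adjusted p = 2.11e-04), and leaving out Guibi-tang low replicate 3 gave 2.

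Against the vehicle, HSPA1A, HSPA8, DNAJA1, DNAJB1, BAG3 and HSPA1B were lower in nearly every extract group, the low doses included. HSP90AA1 was lower in 7 of 21 comparisons and HSPB1 in 10. How often other genes were called lower in these 21 is not given here. The names of the vehicle libraries carry a prefix of their own, so an extract effect and a difference between library sets cannot be told apart in these comparisons, and all of them share the same 3 vehicle libraries. HSPA1A stood at 303, 336 and 353 CPM in the vehicle. In the 56 extract libraries it ran from 166 through a median of 236 to 278, so every extract library lay below every vehicle library. This held for HSPA1A alone among the members and for 0.300% of all genes.

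HSPA1A was called lower in all 21 comparisons of an extract dose with the vehicle, with log2 changes from -0.86 to -0.36. HSPA8 was also lower in all 21 (-0.96 to -0.11), with 55 of 56 extract libraries below the lowest vehicle library. Its smallest change, Menthae Herba at high dose, was not called without vehicle replicate 3 (-0.07, adjusted p = 0.187), without high replicate 1 (adjusted p = 0.0796) or with no filter on low counts (adjusted p = 0.169). DNAJA1 and DNAJB1 were lower in 20 of 21. BAG3 was lower in 20 and higher in 1, Aucklandiae Radix at high dose (0.54 ± 0.05). HSPA1B was lower in 19, STIP1 in 17, FKBP4 and HSPH1 in 16, and CHORDC1 and DNAJB6 in 14. The TRiC subunits were not part of this group: each was lower in 1 to 5 comparisons, and CCT2 was higher in 6. HSPD1 was higher in 9 and lower in 2. All 21 comparisons use the same 3 vehicle libraries. The share of all genes called this often is not given here, so these counts cannot be set against a background.

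**Figure D5:**
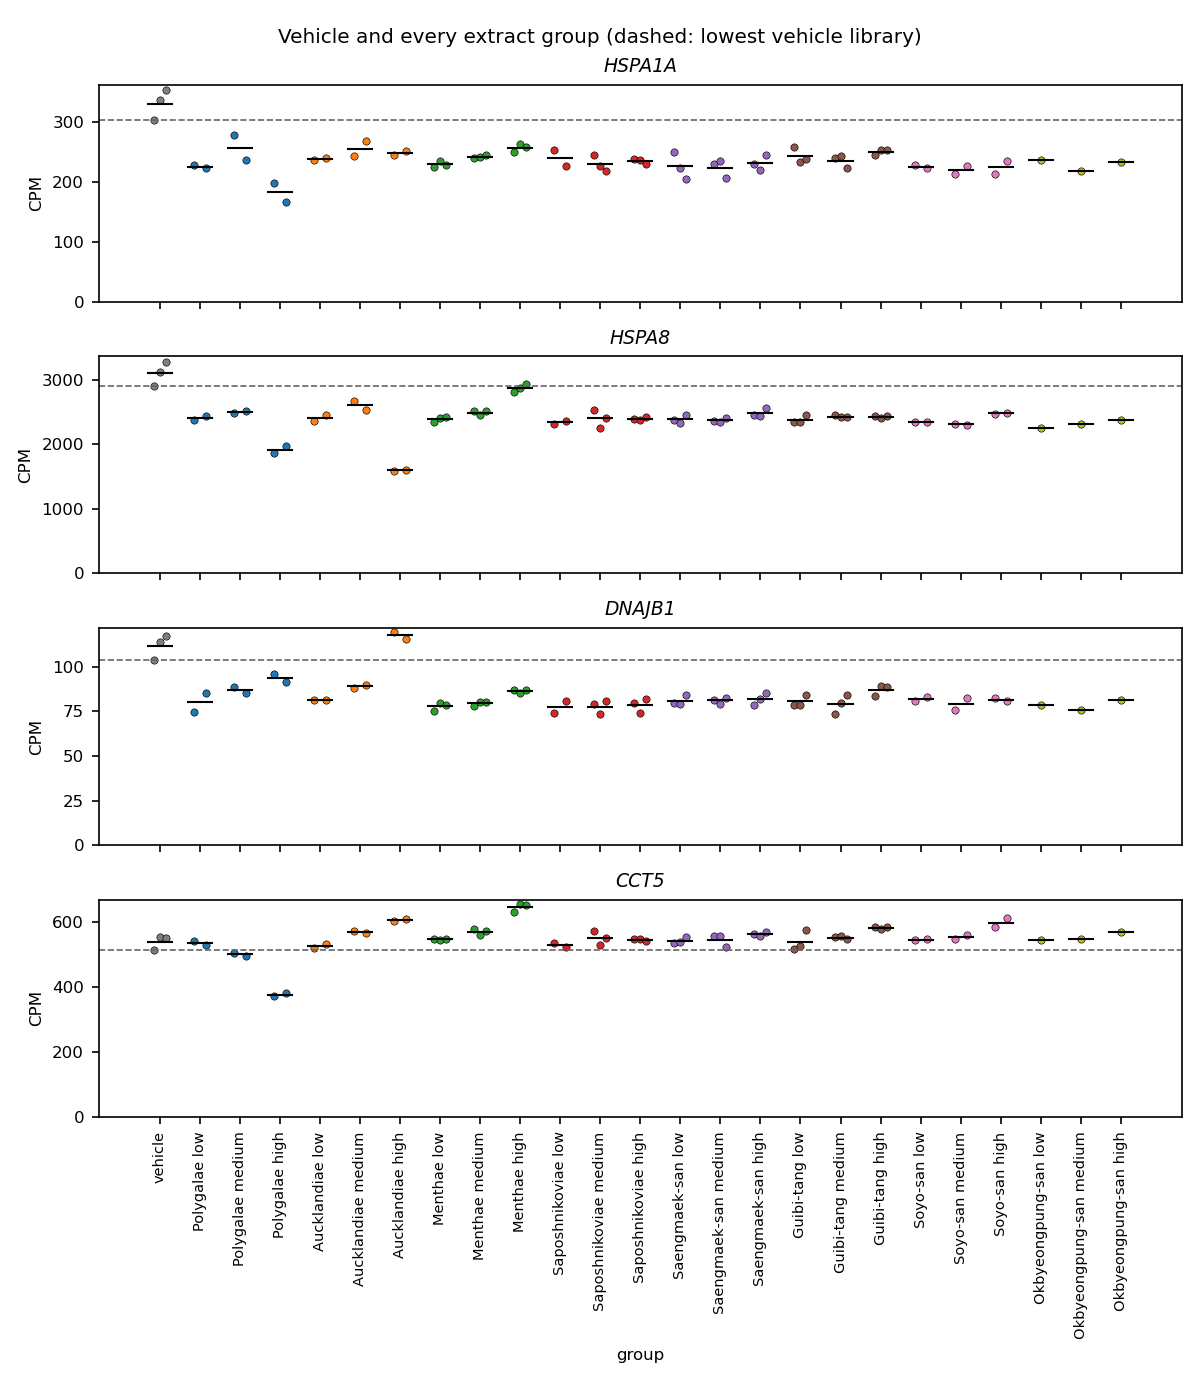
CPM (vertical axes, from 0) of 4 members in each library of the vehicle and of all extract groups, with a dashed line at the lowest vehicle library and short lines for group means. All extract libraries of HSPA1A lie under the line, as do 55 of 56 for HSPA8, while for CCT5 only 4 of 56 lie under the line and 25 are above the highest vehicle library.

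At low dose 12 to 17 members were lower than the vehicle and 0 were higher with each extract. Polygalae Radix had 14 lower (9.98% of all genes called in either direction) and Aucklandiae Radix 12 (4.97%). Menthae Herba had 13 (9.45%) and Saposhnikoviae Radix 14 (11.5%). Among the formulas, Saengmaek-san had 17 (18.0%), Guibi-tang 12 (6.05%) and Soyo-san 13 (9.80%). Over the 7 extracts 95 calls were made, all lower, and 145 without vehicle replicate 1. At an unadjusted p under 0.05, 0 or 1 member was higher in each extract, with no share of all genes at that threshold given here. DESeq2 called 3 higher over all 7, and scaling by total counts gave 68 lower and 4 higher. DNAJB1 at low dose was lower by -0.44 with Soyo-san to -0.52 with Menthae Herba and Saposhnikoviae Radix.

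At medium dose the counts were similar, with the share of all genes called in either direction in brackets. The share of all genes called lower ran from 2.47% with Saposhnikoviae Radix to 6.63% with Aucklandiae Radix. Polygalae Radix had 13 lower and 0 higher (10.2%) and Aucklandiae Radix 10 and 0 (13.6%). Menthae Herba had 10 and 3 (10.1%) and Saposhnikoviae Radix 12 and 0 (3.69%). Among the formulas, Saengmaek-san had 14 and 1 (11.4%), Guibi-tang 12 and 1 (11.0%) and Soyo-san 13 and 1 (8.55%). HSPD1, at 994, 1102 and 966 CPM in the vehicle, was higher there with Menthae Herba (0.18), Soyo-san (0.17), Guibi-tang (0.16) and Saengmaek-san (0.14). Over all extracts the medium dose gave 84 lower and 6 higher calls, and 64 and 11 when scaled by total counts.

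At high dose Polygalae Radix had 29 members lower and 2 higher, HSF1 and HSF2, against 36.5% of all genes called in either direction. HSP90AA1 was lowest relative to the vehicle (-1.15 ± 0.08, edgeR adjusted p = 1.2e-16), followed by HSP90AB1 (-0.93), HSPA1A (-0.86), HSPB1 (-0.76), CCT7 (-0.75) and HSPD1 (-0.73). The HSF1 call (0.15) was lost without vehicle replicate 2, vehicle replicate 3, high replicate 2 or high replicate 3, and the HSF2 call (0.21) without vehicle replicate 1, vehicle replicate 3 or high replicate 3. With no filter neither was called (adjusted p = 0.0967 and 0.168), nor was HSF2 with DESeq2 (adjusted p = 0.063). Aucklandiae Radix had 12 higher and 11 lower, 63.9% of the members, near the 62.0% of all genes called in either direction. HSPB1 was lowest there (-1.27 ± 0.10), and DNAJB4 highest (0.84). Menthae Herba had 14 higher and 6 lower against 28.2%. Its 14 held 7 TRiC subunits, HSPD1, HSPA9 and TRAP1, and its 6 held HSPA1A, HSPA1B, HSPA8, DNAJB1, BAG3 and HSPB1. Of these, HSPA1B was not called without vehicle replicate 3 (adjusted p = 0.074) or Menthae Herba high replicate 1 (adjusted p = 0.066), and HSPA8 not under the settings named above. So the genes this extract raised over its own low dose did not all exceed the vehicle: BAG3 rose by 0.21 over the low dose and was still -0.28 from the vehicle.

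The other 4 extracts at high dose kept the lower group. Saposhnikoviae Radix had 11 lower and 1 higher, beside 10.2% of all genes called in either direction. On the same terms Saengmaek-san had 10 and 3 (12.0%), Guibi-tang 8 and 6 (29.4%) and Soyo-san 8 and 5 (17.7%). The shares of all genes called lower were 5.01%, 6.16%, 14.7% and 9.22% in this order. With no filter on low counts the lower and higher calls were 11 and 1 for Saengmaek-san, 9 and 2 for Guibi-tang and 9 and 2 for Soyo-san, and with total counts they were 7 and 5, 6 and 6, and 6 and 7. HSPA1A, HSPA8, STIP1, DNAJA1, DNAJB1 and BAG3 were lower in all 4, and HSPD1 was higher in all 4. The DNAJA1 calls of the 3 formulas were weak. Each was lost with total counts (adjusted p = 0.210, 0.189 and 0.0777 in the order above). They were also lost without vehicle replicate 2 or vehicle replicate 3, without any 1 high dose library of Saengmaek-san or Soyo-san, and without high replicate 1 or high replicate 3 of Guibi-tang (adjusted p from 0.0541 to 0.345). Totals fell to 7 without vehicle replicate 3 and to 8 without high replicate 1 for Saengmaek-san, to 9 without vehicle replicate 3 for Guibi-tang, and to 8 without high replicate 2 for Soyo-san. HSPD1 with Saposhnikoviae Radix (0.14) was not called without vehicle replicate 1, vehicle replicate 3 or high replicate 3, or with no filter (adjusted p = 0.069).

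Other chaperone genes were taken from a list of 68, of which 64 were tested. Between high and low dose Aucklandiae Radix raised 31 and lowered 8, with a median of 0.22, beside 29.6% and 29.2% of all genes. Menthae Herba raised 23 and lowered 2 (median 0.11), beside 12.0% and 11.6%. Guibi-tang raised 9 and lowered 2 (0.05), beside 8.84% and 9.08%. Polygalae Radix raised 8 and lowered 9 of the 64 (0.00), near the 13.3% and 16.0% of all genes. Saengmaek-san and Soyo-san raised 1 each, and Saposhnikoviae Radix had 0 calls. The fall with Polygalae Radix in the 36 genes was thus not seen in the median of the wider list.

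With Aucklandiae Radix, ZFAND2A, an arsenite-inducible protein linked to the proteasome, went from 5.98 and 5.48 CPM to 20.1 and 18.0 (1.74 ± 0.11, edgeR adjusted p = 2.70e-18). HSPB8, the small heat shock partner of BAG3, had 68 and 55 counts at high dose against 1 and 4 at low dose, and 5, 6 and 3 in the vehicle. HSPA6, a strictly inducible HSP70, had 23 and 16 counts against 7 and 3, but also 19, 7 and 14 in the vehicle. HSPB8 at high dose was thus above the vehicle as well as the low dose. Scaled for library size, HSPA6 was at 0.840 and 0.694 CPM at high dose and at 0.524, 0.277 and 0.516 in the vehicle. Its counts thus overlapped the vehicle while its CPM did not, at levels near the floor. GRPEL1, the exchange factor of mitochondrial HSP70, rose with Aucklandiae Radix (0.64), Menthae Herba (0.39), Guibi-tang (0.26), Soyo-san (0.21) and Saengmaek-san (0.20), and it was the only gene of the list called in the last 2. With Polygalae Radix it was not called (0.07).

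With Polygalae Radix, BAG6, which escorts misplaced membrane proteins to degradation, went from 288 and 286 CPM to 163 and 159 (-0.83 ± 0.06, edgeR adjusted p = 3.20e-15). UNC45A, a myosin chaperone that binds HSP90, went from 71.0 and 79.3 CPM to 49.3 and 42.6 (-0.71). HSPA2, at only 3.16 and 3.19 CPM at low dose, fell by 1.21 on the log2 scale, more than the other genes of the list called lower. DEDD2 (0.45), BAG1 (0.29) and TTC4 (0.26) had the largest rises. With Guibi-tang, FKBP5 (0.28) and GRPEL1 (0.26) were among the rises, and HSPA2 (-0.48) and ST13 (-0.13) fell.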

How the data were processed

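The authors deposited expected counts per gene. Per the submitters' processing notes these came from RSEM 1.3.3, with reads aligned by STAR 2.7.3a to hg38, trimmed by Trim Galore 0.6.5 and inspected with FastQC 0.11.9. The sources used here do not name the annotation release or the strand setting. RSEM divides reads among near-identical sequences, so HSPA1A and HSPA1B, UBB, and genes with processed pseudogenes such as HSPD1, HSP90AA1, HSP90AB1 and CCT6A are uncertain, as are the 14 members that share exon sequence with a gene on the opposite strand, including HSPD1 with HSPE1. Libraries were directional, per the labels' protocols.

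Of the values, 10.0% were not exactly whole (no tolerance), and all were rounded. The test was that of edgeR 4.0.16, run in R 4.3.3 (TMM, filterByExpr with a minimum count of 10, quasi-likelihood F-test, two-sided, Benjamini-Hochberg over 16978 genes) on 56 libraries in 22 groups with 34 residual degrees of freedom. CPM are counts scaled to TMM-adjusted library totals, and intervals are 95%. In simulated data on 16978 genes, changes were planted in 66 or 67 genes of each size, drawn above a minimum mean count. For Polygalae Radix high against low, edgeR recovered 24.24%, 70.15% and 97.01% of planted log2 changes of 0.25, 0.5 and 1, with 9 false calls. For Menthae Herba it recovered 43.94%, 92.54% and 98.51%, with 11 false calls. Genes were drawn independently with the fitted spread and nearly all were unchanged, unlike these data, so recovery here may differ. Alternatives were the 57-library fit, other scalings, no filter, a replicate block, DESeq2 1.42.0 and leaving out each library.

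The members and lists were chosen with earlier results of these data known. Values of single libraries, for the groups a result concerns, are given in each role group for the member with the highest mean CPM, the member with the largest called change of high against low in any extract and the one with the largest with Polygalae Radix; also for HSPA1A and HSPA1B, HSP90AA1 and HSP90AB1, HSPD1 and HSPE1, HSF1 and HSF2. Those of HSPH1, DNAJB1, DNAJB4, BAG3 and HSPA9 were added after their values were seen. Of the other chaperone genes, the 3 largest called rises and falls of each extract could be named, and not every one is reported here. Wortmannin, a control in the design text, was not analysed here.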

Additional observations from a re-analysis of the deposited data

Results flagged for a closer look

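The high minus low change differed between Polygalae Radix and Aucklandiae Radix, by edgeR's test of the difference itself, for 30 members. Among the members given library by library, the difference (Polygalae Radix minus Aucklandiae Radix, log2) was -1.25 for HSP90AA1, -0.99 for HSPH1, -0.89 for HSPA9, -0.83 for DNAJB4, -0.78 for BAG3, -0.71 for CCT5, -0.62 for HSP90AB1 and for UBB, -0.58 for HSPA1B, -0.52 for CCT7, -0.42 for HSPD1, -0.36 for HSPA1A and -0.30 for DNAJB1. It was positive for HSPB1 (0.65), HSPE1 (0.45) and HSPA8 (0.26).

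Between Menthae Herba and Saposhnikoviae Radix the same test called 11 members, among them HSPA1B (0.31), HSPA8 (0.23), CCT7 (0.22) and CCT5 (0.20). Between Saengmaek-san and Guibi-tang it called 1, HSPB1 (0.65).

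The library labelled Saposhnikoviae Radix low replicate 2, which entered no comparison, had 9 members above the highest vehicle library and 24 below the lowest. HSP90AA1 stood there at 6862 CPM, HSPB1 at 859 and FKBP4 at 514, while BAG3 was at 9.63.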

How the results depend on the processing

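With the Saposhnikoviae Radix low library that stood apart in the fit (57 libraries), calls between high and low dose numbered 13 for Polygalae Radix, 17 for Aucklandiae Radix, 10 for Menthae Herba, 9 for Saposhnikoviae Radix, and 0 each for Guibi-tang and Soyo-san. High dose against vehicle gave 18 for Polygalae Radix, 6 for Menthae Herba, 2 each for Saposhnikoviae Radix and Saengmaek-san, and 3 each for Guibi-tang and Soyo-san. Over all extracts that fit gave 12 calls for medium and 26 for low dose against vehicle, 7 for medium against low, and 60 for the other chaperone genes in place of 94. Of the extract differences, Polygalae Radix against Aucklandiae Radix gave 17 and Saengmaek-san against Guibi-tang 0. Scaling by total counts gave 23 for Polygalae Radix against Aucklandiae Radix, and 72 for low and 75 for medium dose against vehicle. The members' median change of high against low was then -0.23 for Polygalae Radix, 0.04 for Aucklandiae Radix and 0.17 for Menthae Herba. That scaling also gave 1 for Soyo-san high against low, 0 for medium against low and 3 for Menthae Herba against Saposhnikoviae Radix. With no filter these were 1 for Soyo-san, 7 for Menthae Herba against Saposhnikoviae Radix, and 2 for Saengmaek-san against Guibi-tang. The cause was not tested.

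Leaving out 1 library at a time, high against low ranged from 5 to 14 for Guibi-tang and from 0 to 1 for Soyo-san. High against vehicle ranged from 7 to 16 for Saengmaek-san, 9 to 17 for Guibi-tang and 8 to 17 for Soyo-san. Low against vehicle ranged from 69 to 145 and medium against low from 0 to 3. The extract differences ranged from 2 to 12 for Menthae Herba against Saposhnikoviae Radix and from 1 to 2 for Saengmaek-san against Guibi-tang. Of 95 called changes of single members, 0 changed direction under any alternative run, and 47 lost their call with 57 libraries, 7 with total counts, 8 with no filter, and 1 each with DESeq2 and its size factors. Leaving out 1 library lost the call in 46 of 494 fits of single members.

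Deviations of same-numbered libraries correlated at -0.07 to 0.31 (median 0.02), over 0.1 in 9 of 52 pairs, and those of other pairs at -0.31 to 0.10. As a hint from the data, 34 of 54 libraries correlated best with their own number. In groups of 2 libraries the deviations mirror each other, so the values of such pairs are not independent. Since not every pair was over 0.1, the numbers were not taken to pair the libraries. A replicate block gave 1 call for medium against low, and 2 for Saengmaek-san against Guibi-tang, and moved no other count of calls by over 1.5 times.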

Other observations

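Okbyeongpung-san had 1 library at each dose and so no replicate check. Its members summed to 14574 CPM at high, 13920.4 at medium and 13626.5 at low dose.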
